A study of Mus musculus with 9 samples.

Results

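Hippocampal gene expression was compared between mice that received betaine after a methionine-rich diet (Bet+HMD) and mice on the diet alone (HMD). A total of 7194 protein-coding genes reached the level of 5 FPKM on average over the 3 Bet+HMD and the 3 HMD samples, of 22046 protein-coding and 54532 listed genes. FPKM is the number of fragments scaled to the length of the gene and the size of the library. The level used the samples of both groups, so a large difference could decide membership. 347 members averaged under 5 FPKM in HMD and reached it in Bet+HMD samples, of which 272 were called higher, and 337 did the reverse, of which 260 were called lower. Such members came in through the group in which they are high. Of the 6510 members at 5 FPKM or more on average in both groups, 930 were called higher and 2382 lower at a limma adjusted p under 0.05, a threshold that 22.8% and 25.5% of all genes tested passed in these directions. Just inside the limit lay Mcam, Mchr1 and Chpf2, at 5.004, 5.005 and 5.006 FPKM on average. Just outside lay Tmem150a at 4.999 and Setd1b and Rrbp1, both at 4.996.

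The samples were hippocampi of C57BL/6 mice, male per the labels, which were bought at 6 to 8 weeks of age. HMD mice ate a diet high in methionine over 8 weeks. Bet+HMD mice ate that diet over 8 weeks too, and betaine at 2.5% (w/v) was then added to their water over 2 weeks. Con mice received a standard diet, and their values from the same table stand beside the others as a description. The labels name no genetic change in any group. Whether the diet went on during the betaine weeks is not given in the sources used here, so Bet+HMD samples differed from HMD samples in betaine and in the time of sampling. The labels do not say whether a sample was 1 mouse or a pool, so the p-values measure the spread between these samples. The strain field of the Bet+HMD samples reads C57BL/6, C57BL/7 and C57BL/8. The study's methods describe female mice, whereas the Y-linked gene Ddx3y lay between 12.7 and 21.2 FPKM in all 9 samples and Xist, which is transcribed from the inactive X chromosome, did not exceed 0.045 FPKM.

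Methionine is activated to S-adenosylmethionine, the methyl donor for DNA, histones and many small molecules, and the spent donor is hydrolysed to homocysteine. Homocysteine is either returned to methionine, with a methyl group from folate or from betaine, or passed on to cysteine. The betaine route runs mainly in liver and kidney, and betaine also serves cells as an osmolyte. The hippocampus holds densely packed excitatory neurons, inhibitory interneurons and glia, whose synapses are a main substrate of memory formation. In bulk RNA, fewer cells of a type and less RNA per cell cannot be told apart.

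HMD and Bet+HMD libraries were of like depth, with 16031464 to 17498798 and 16602496 to 16857079 reads assigned to genes. They stood apart in their makeup. The members held 90.1 to 90.3% of the reads in HMD samples and 87.5 to 87.6% in Bet+HMD samples, and between 20960 and 22502 genes had a read in HMD samples against 25315 to 25663 in Bet+HMD samples. Deposited FPKM values summed to between 289606 and 292361 per HMD sample and to between 249135 and 258514 per Bet+HMD sample. The Bet+HMD libraries joined the series in a later table and no label names a batch, so a difference in the handling of the libraries and the effect of betaine cannot be told apart in any comparison below. Rescaling the FPKM values of each sample to a constant sum, which gives the TPM scale, moved the median log2 fold change of the 13672 genes tested from -0.025 to 0.16. Where this changed the call of a gene or the counts of a list, the result with TPM is given too.

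More members were lower than higher in Bet+HMD samples. At an adjusted p under 0.05, 3844 members differed, of which 1202 were higher and 2642 were lower. This was 53.4% of the members, beside 48.3% of all genes tested, and by direction 16.7% higher and 36.7% lower beside 22.8% and 25.5% of all genes tested. The counts of the gene lists below are to be read beside these shares. With TPM the balance turned, as 2003 members were higher and 1465 lower (32.9% and 14.4% of all genes tested), so that the higher share of called members moved from 31.3% to 57.8%. No member was called in opposite directions by FPKM and TPM. Under the deposited scale and 4 other scalings, 1071 members were called higher and 1264 lower every time. At least a 2-fold difference on the log2(FPKM + 1) scale was called for 426 members, 173 higher and 253 lower, which was 5.92% beside 8.93% of all genes tested (6.14% higher and 2.79% lower). With TPM these were 322 and 172 members, beside 10.8% and 2.39% of all genes tested. The 3 Bet+HMD values lay fully above or below the 3 HMD values for 4673 members (65.0%, beside 60.1% of all genes tested). The log2 fold changes of the central 90% of the members ran from -0.88 to 0.71.

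**Figure D1:**
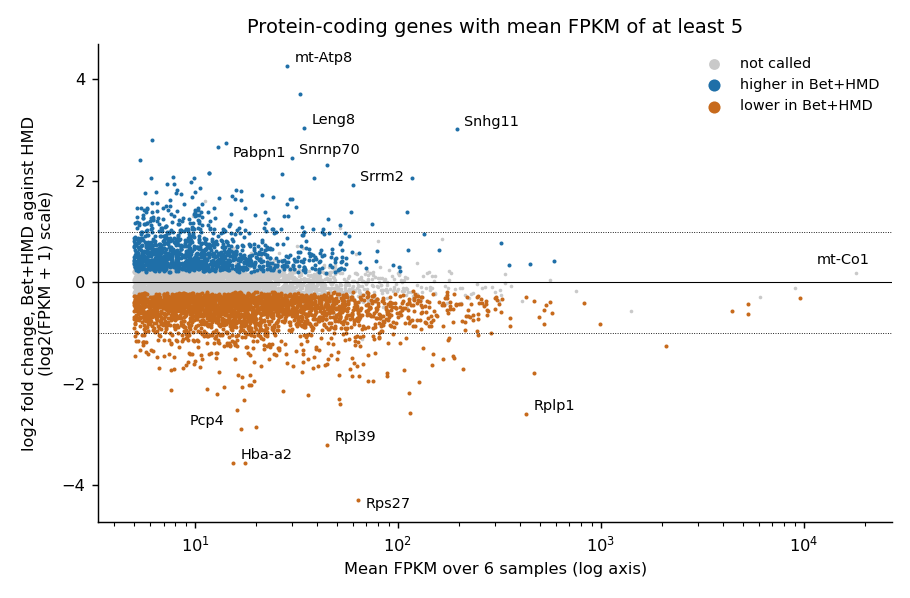
Log2 fold change of each of the 7194 members (Bet+HMD against HMD, vertical axis) against its mean FPKM over the 6 samples (log axis), with 1 point per gene and dotted lines at a 2-fold difference. In the quintile of highest level 91 members fell and 22 rose at least 2-fold. Rps27 at -4.30 leads the falls, and mt-Atp8 at 4.27 leads the rises.

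The 12 largest rises ran from 2.15 to 4.27 on the log2 scale. Of these genes 8 averaged under 5 FPKM in HMD samples, so that their rise also brought them into the set (Coro6, Gm11808, mt-Atp8, Muc3a, Pabpn1, Spaca6, Ssh3 and Taf15). Leng8, a gene of the leukocyte receptor cluster, was measured at 6.62, 6.64 and 6.85 FPKM in the HMD samples and at 60.5, 65.4 and 61.6 FPKM in the Bet+HMD samples, a 9.32-fold rise (log2 fold change 3.04, SE 0.066, limma adjusted p = 2.01e-06). The 3 HMD values were nearly equal and lay far below the lowest Bet+HMD value, and the Con samples, at 8.04, 4.77 and 9.25 FPKM, resembled HMD. The columns read as Con carry a prefix of their own in the table and were matched by elimination. Snrnp70, the U1 snRNP protein that helps mark the start of an intron, rose from 7.29, 9.27 and 9.35 to 52.4, 50.5 and 51.4 FPKM (log2 fold change 2.45, SE 0.10, limma adjusted p = 1.57e-05). Pabpn1, which binds poly(A) tails in the nucleus, rose from 1.97, 3.87 and 3.12 to 26.4, 25.7 and 23.9 FPKM (log2 fold change 2.75, SE 0.17, limma adjusted p = 6.17e-05). Its annotated span is shared with the gene model Gm20521 on the same strand, so its reads may be split between both. Taf15, an RNA-binding protein, went from 3.59, 2.62 and 4.95 to 19.5, 19.0 and 20.3 FPKM (log2 fold change 2.16, SE 0.17, limma adjusted p = 1.31e-04). For Taf15 and Pabpn1 the Con samples were spread widely, at 5.28, 3.17 and 12.8 and at 2.88, 2.93 and 7.32 FPKM, yet stayed below all Bet+HMD values.

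Snhg11, a host gene of small nucleolar RNAs, had the highest level of the 12, at 31.3, 51.7 and 45.9 FPKM in HMD and 342, 341 and 362 FPKM in Bet+HMD samples (log2 fold change 3.02, SE 0.17, limma adjusted p = 4.63e-05). The deposited annotation counts it as protein-coding, although it is known as a noncoding RNA. Coro6, a coronin of the actin cytoskeleton, rose from 2.79, 2.51 and 2.97 to 22.8, 24.95 and 21.5 FPKM, and Ssh3, a phosphatase of the actin-severing protein cofilin, rose from 2.90, 4.53 and 3.67 to 20.6, 19.0 and 19.4 FPKM. Their log2 fold changes were 2.68 and 2.15 (limma adjusted p = 1.11e-05 and 5.34e-05), and groups that do not overlap were a condition for choosing the 12 genes. Spaca6, known as a sperm membrane gene, rose from 0.790, 0.979 and 1.27 to 9.90, 9.31 and 9.81 FPKM (log2 fold change 2.41, SE 0.11, limma adjusted p = 2.12e-05). Its annotated span also holds the microRNA genes Mir99b and Mirlet7e on the same strand. Muc3a, of the mucin family, rose from 0.854, 0.692 and 0.784 to 11.6, 12.7 and 10.3 FPKM (log2 fold change 2.82, SE 0.10, limma adjusted p = 1.34e-05). AC149090.1, a gene model without a described role, rose from 14.0, 15.2 and 13.8 to 72.7, 76.5 and 75.6 FPKM (log2 fold change 2.31, SE 0.068, limma adjusted p = 9.72e-06).

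The pair with the largest rises were short genes. The mitochondrial ATP synthase subunit mt-Atp8 is 204 bases long and overlaps mt-Atp6 on the same strand. It stood at 1.69, 1.60 and 2.32 FPKM in HMD and 44.3, 51.8 and 69.0 FPKM in Bet+HMD samples (log2 fold change 4.27, SE 0.17, limma adjusted p = 1.57e-05), and the Con samples read 0.813, 2.42 and 15.2 FPKM. Gm11808, a gene model of 504 bases, stood at 4.34, 2.33 and 4.58 and 79.2, 61.7 and 44.3 FPKM (log2 fold change 3.72, SE 0.26, limma adjusted p = 9.04e-05). Here 1 Con sample, at 81.7 FPKM, was as high as the Bet+HMD samples while the other Con samples were at 3.40 and 4.04 FPKM.

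**Figure D2:**
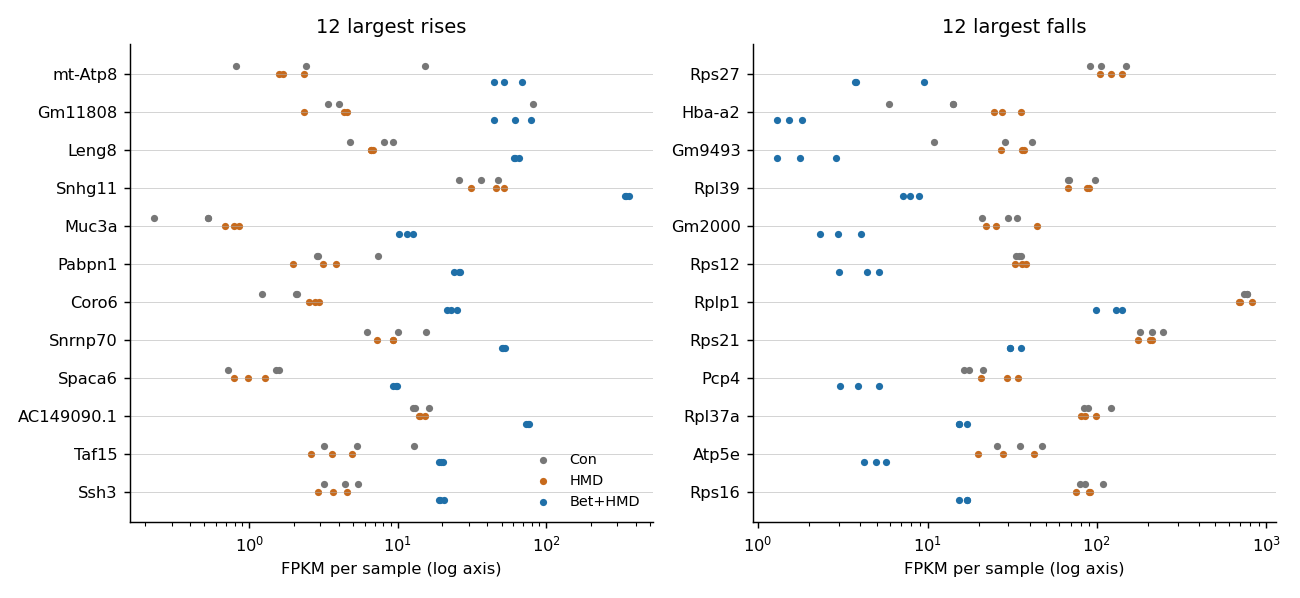
FPKM of each sample (log axis) for the 12 largest rises and the 12 largest falls that kept their sign under every scaling, with 3 points per group for Con, HMD and Bet+HMD. The Bet+HMD points of each gene are separate from its HMD points because the genes were chosen that way. Con points lie mostly near HMD points, apart from 1 high Con sample of Gm11808 and of mt-Atp8 and lower Con samples of Hba-a2.

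Of the 12 largest falls, 6 averaged under 5 FPKM in Bet+HMD samples, and 7 were cytosolic ribosomal proteins from the list (Rps27, Rpl39, Rps12, Rplp1, Rps21, Rpl37a and Rps16), and the remaining genes were the short gene models Gm9493 and Gm2000, the alpha globin Hba-a2, Pcp4 and Atp5e. Rps27, a protein of the small ribosomal subunit, was measured at 121, 140.5 and 104 FPKM in HMD samples and 3.75, 9.54 and 3.80 FPKM in Bet+HMD samples (log2 fold change -4.30, SE 0.30, limma adjusted p = 9.54e-05), the largest fall of any member. Rplp1, an acidic protein of the ribosomal stalk, had the highest level of the 12 and fell from 698, 688 and 825 to 140.4, 129 and 98.5 FPKM (log2 fold change -2.59, SE 0.14, limma adjusted p = 4.25e-05). Rpl39 fell from 89.7, 86.9 and 67.8 to 7.83, 8.87 and 7.17 FPKM (log2 fold change -3.20, SE 0.13, limma adjusted p = 1.57e-05). In each of these 3 genes the Con samples lay at HMD levels, for example at 106, 147 and 91.5 FPKM for Rps27. Many processed copies of ribosomal protein genes exist in the genome, so how reads were shared among copies could affect these values.

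Outside the ribosome, Pcp4, a small calmodulin-binding protein of CA2 and other neurons, fell from 34.2, 20.7 and 29.3 to 5.16, 3.91 and 3.02 FPKM (log2 fold change -2.52, SE 0.21, limma adjusted p = 1.74e-04). Atp5e, the epsilon subunit of mitochondrial ATP synthase, fell from 27.7, 19.7 and 42.7 to 4.98, 5.70 and 4.22 FPKM (log2 fold change -2.32, SE 0.25, limma adjusted p = 4.50e-04). Atox1, a copper chaperone, was among the 5 genes with the smallest p and fell from 43.9, 46.3 and 44.4 to 9.47, 9.93 and 8.71 FPKM (log2 fold change -2.15, SE 0.072, limma adjusted p = 1.11e-05). Its 3 values within each group spanned a narrow range.

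Both directions were graded by gene length. Split into quintiles of length, the members had median log2 fold changes of -0.42, -0.25, -0.14, -0.055 and 0.038 from the shortest quintile (51 to 2529 bases) to the longest (7821 to 41155 bases). The share called lower dropped from 54.0% to 15.8% along these quintiles, and the share called higher went from 7.16% to 28.1%. Members that rose at least 2-fold had a median length of 5936 bases, those that fell at least 2-fold one of 1610 bases, and all members one of 4522.5 bases. Among the HMD samples themselves the shortest quintile spanned -0.094 to 0.096 around the HMD mean, and the longest quintile -0.087 to 0.10, so single HMD samples carried opposite length gradients of smaller size. The third Con sample carried a larger one, from 0.23 in the shortest quintile to -0.17 in the longest, opposite to that of the Bet+HMD samples. The first Bet+HMD sample, for example, ran from -0.36 to 0.021. In the Bet+HMD samples the shortest quintile lay between -0.49 and -0.36, below every HMD and Con sample. Removing a fitted length trend left 1416 members higher and 2345 lower, with 193 and 117 past the 2-fold line.

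Members with annotated intron-retaining transcripts were more often higher. Where the GENCODE M21 annotation listed 3 or more such transcripts, 30.4% of 1608 members were called higher and 24.1% lower, whereas of the 2973 members with none 11.3% were higher and 42.5% lower. Of the 173 members that rose at least 2-fold, 89 (51.4%) had 3 or more, beside 35 (13.8%) of the 253 that fell at least 2-fold and 22.4% of all members. Longer genes have more annotated transcripts, and the contrast was smaller within quintiles of length. In the longest quintile 30.1% of members with at least 1 such transcript were higher and 16.2% lower, beside 20.5% and 14.2% of those with none (medians 0.053 and 0.010). In the shortest quintile 8.49% and 6.27% were higher. These shares describe the annotation and not measured introns, since gene-level values do not separate intronic from exonic reads. By base composition the gradient was smaller, with medians from -0.17 in the quintile of lowest GC content to -0.083 in the highest. The members were graded by level too. From the quintile of lowest mean FPKM to the highest, the median went from 0.0037 to -0.30 (0.028 to -0.21 with the length trend removed). The share called lower went from 22.8% to 53.6%, and the share called higher from 23.5% to 8.76%.

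**Figure D3:**
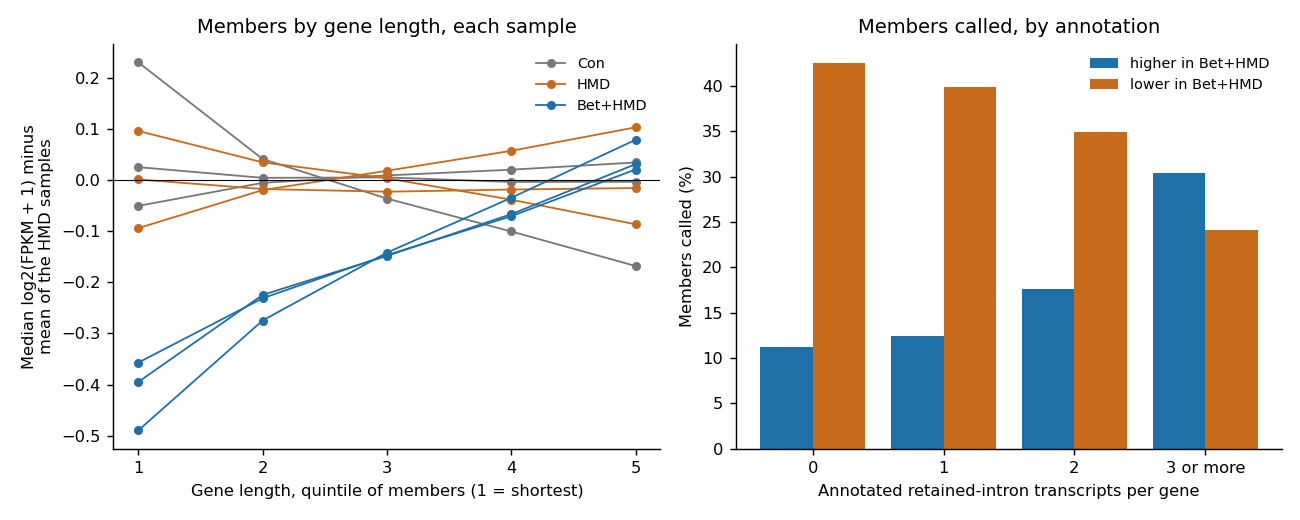
Left, median log2(FPKM + 1) of the members in each quintile of gene length minus the mean of the HMD samples, with 1 line for each of the 9 samples. Right, percent of members called higher or lower in Bet+HMD samples, by the number of annotated intron-retaining transcripts per gene. The 3 Bet+HMD lines climb from between -0.49 and -0.36 to just above 0, and in the right panel the higher share overtakes the lower share at 3 or more transcripts (30.4% against 24.1%).

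The cytosolic ribosomal proteins, the structural proteins of the translating ribosome, formed the list with the lowest median. Of 77 members 62 fell, 43 of them at least 2-fold, none rose and 15 did not pass the test, with a median log2 fold change of -1.12 beside -0.025 for all genes tested. With TPM 58 fell and the median was -0.93, and after removal of the length trend it was -0.79. Rps21 fell from 207, 211 and 175 to 30.6, 35.7 and 30.6 FPKM (log2 fold change -2.57, SE 0.10, limma adjusted p = 1.57e-05). The members that did not pass the test included Rpl35 at 0.67, Rpl23a at 0.56, Rps26 at -0.058 and Rps15 at 0.045.

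Ribosomal protein genes are known for a pyrimidine-rich start of their mRNAs, through which their translation is controlled. The letters CTTTC were searched for on the sense strand in the 30 bases from 10 before to 20 after the first RefSeq start of each gene (build GRCm38.p6), a window that 5653 of the 7194 members had. They occurred in 12 of 57 ribosomal windows (21.1%), in 2.83% of the members' windows and in 3.66% of all 27025 promoters. On either strand, with GAAAG as the reverse complement, the shares were 24.6%, 5.18% and 7.14%. Windows are shown in lower case with CTTTC in capitals, first for Rps27 and 3 ribosomal genes chosen because they hold the letters, then for Rps12 and Rpl39, which fell without them, then for 3 of the largest rises.
Rps27 (chr3:90213629-90213658, minus strand): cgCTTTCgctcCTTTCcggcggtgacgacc
Rplp2 (chr7:141447641-141447670, plus strand): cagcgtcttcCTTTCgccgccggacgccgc
Rpl18 (chr7:45718061-45718090, plus strand): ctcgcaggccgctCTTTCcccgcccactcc
Rpl35 (chr2:39005112-39005141, minus strand): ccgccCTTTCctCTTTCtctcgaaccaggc
Rps12 (chr10:23787190-23787219, minus strand): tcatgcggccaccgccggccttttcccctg
Rpl39 (chrX:37085203-37085232, minus strand): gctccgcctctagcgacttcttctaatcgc
Leng8 (chr7:4137046-4137075, plus strand): gacgttcgagccccagactagagccagccg
Snrnp70 (chr7:45395723-45395752, minus strand): tgactcgtacggcgcatgcgcattgcgaaa
Pabpn1 (chr14:54894133-54894162, plus strand): ggcgggccccagtctgagcggcgatggcgg
Genes with and without the letters fell. Rplp2 and Rpl18 hold them and fell (log2 fold changes -1.65 and -1.51), Rpl35 holds 2 copies and was not called (0.67), and Rps12 and Rpl39 lack them in this window and fell (-2.85 and -3.20). Only the exact letters were searched for, so a window without them can still hold a run of pyrimidines, as that of Rps12 does. Of the members that fell at least 2-fold 5.26% held the letters (10 of 190 windows), beside 2.07% of those that rose at least 2-fold (3 of 145) and 2.83% of all members. The falls with the letters include the ribosomal genes Rps27, Rplp2 and Rpl18, so this share is not separate from the ribosomal one.

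Nuclear genes of the respiratory chain, which build the inner-membrane complexes of oxidative phosphorylation, followed the same direction. Of 74 members 57 fell, 22 at least 2-fold, 4 rose and 13 were not called (median -0.76). With TPM 47 were lower and 6 higher (median -0.59). Atp5g3, of the membrane ring of ATP synthase, fell from 84.7, 75.3 and 81.5 to 21.7, 23.0 and 21.6 FPKM (log2 fold change -1.82, SE 0.072, limma adjusted p = 1.57e-05). Sdhb, the iron-sulphur subunit of complex II, fell from 56.3, 60.1 and 54.0 to 22.2, 20.02 and 17.8 FPKM (log2 fold change -1.46, SE 0.094, limma adjusted p = 7.07e-05), and Ndufb5 of complex I from 16.3, 19.1 and 17.0 to 6.15, 5.79 and 5.99 FPKM (log2 fold change -1.40, SE 0.080, limma adjusted p = 4.87e-05). The 4 that rose with FPKM were Cox5b, Ndufb8, Cycs and Ndufb6 (log2 fold changes 0.82, 0.72, 0.36 and 0.24). Cox8a, the most abundant nuclear member, read 329, 358 and 310.0 FPKM in HMD and 355, 329.8 and 229 FPKM in Bet+HMD samples and did not pass the test (limma adjusted p = 0.481).

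The 13 proteins encoded by mitochondrial DNA were mixed, as 3 rose, 4 fell and 6 were not called, beside 6 higher and 1 lower with TPM. The risers were mt-Atp8, mt-Nd4l and mt-Nd3, all short, and mt-Nd4l rose from 42.1, 42.2 and 37.9 to 327, 117 and 137 FPKM with 1 Bet+HMD sample far above the others (log2 fold change 2.07, SE 0.35, limma adjusted p = 0.00282). The most abundant member of all, mt-Co1, catalytic core of cytochrome oxidase, read 18007, 16164 and 16712 FPKM in HMD and 19628, 18813 and 19551 FPKM in Bet+HMD samples and was not called (log2 fold change 0.19, SE 0.091, limma adjusted p = 0.124). The call differed with the scale, since with TPM mt-Co1 was higher (0.39, limma adjusted p = 0.00759). mt-Cytb fell from 11292, 9554 and 10829 to 8889, 8416 and 8300.4 FPKM (limma adjusted p = 0.0369), a call that TPM did not keep (adjusted p = 0.378). mt-Nd6 fell (limma adjusted p = 0.0335, and 0.0993 with TPM), mt-Nd1 and mt-Nd2 were not called, and overlapping genes on the other mitochondrial strand leave mt-Nd6 uncertain.

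Proteasome subunits, which make up the protease that degrades ubiquitin-tagged proteins, were lower in 24 of 31 members, 4 of them at least 2-fold, and none rose (median -0.52). With TPM 17 were lower and 3 higher (median -0.34). Psma6 of the core ring fell from 72.2, 74.9 and 73.6 to 28.3, 28.5 and 26.8 FPKM (log2 fold change -1.37, SE 0.063, limma adjusted p = 2.54e-05), Psma5 from 32.8, 37.3 and 32.5 to 18.0, 17.4 and 16.5 FPKM and Psmb1 from 20.4, 20.9 and 19.7 to 11.7, 10.1 and 9.98 FPKM (limma adjusted p = 1.77e-04 and 2.50e-04). Each of these 3 subunits had non-overlapping groups. Genes of the histone proteins themselves were lower in 6 of 11 members, with none higher (0 higher and 5 lower with TPM). H3f3b, which encodes the variant histone H3.3, fell from 60.4, 63.9 and 68.2 to 38.9, 37.8 and 35.6 FPKM (log2 fold change -0.76, SE 0.074, limma adjusted p = 3.08e-04), and the linker histone Hist1h1c fell from 14.3, 15.4 and 12.3 to 6.57, 5.22 and 5.34 FPKM (log2 fold change -1.16, SE 0.11, limma adjusted p = 3.11e-04).

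Splicing factors and their kinases moved the other way. Of 34 members 24 rose, 14 at least 2-fold, 1 fell (Srsf3, -0.32, not called with TPM) and 9 were not called, with a median of 0.61 under FPKM and 0.82 under TPM (29 higher and 0 lower with TPM). Srrm2, a scaffold protein of nuclear speckles, rose from 25.6, 26.2 and 22.02 to 92.5, 97.3 and 97.3 FPKM (log2 fold change 1.92, SE 0.083, limma adjusted p = 2.02e-05). Pnisr, a speckle protein rich in serine and arginine, rose from 8.08, 10.4 and 9.38 to 44.4, 42.6 and 45.5 FPKM (log2 fold change 2.14, SE 0.10, limma adjusted p = 2.16e-05). The most abundant member, the RNA helicase Ddx5, rose from 112, 139.9 and 123 to 195, 183 and 202 FPKM (log2 fold change 0.63, SE 0.10, limma adjusted p = 0.00177). The Clk kinases, which phosphorylate SR proteins and whose transcripts are known to be held in the nucleus with introns, rose by 1.05 (Clk1), 1.17 (Clk2) and 1.26 (Clk4) on the log2 scale. Neuronal regulators of the same list were near 0, with Nova1 at 0.18, Nova2 at 0.21 and Rbfox1 at -0.13, none of which passed the test, though Nova1 and Nova2 were called higher with TPM.

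Chromatin enzymes were mostly higher where they changed. Among writers, erasers and readers of histone and DNA methylation, the marks fed by S-adenosylmethionine, 16 of 24 members rose, 2 fell and 6 were not called (median 0.33, 17 higher and 1 lower with TPM). Dot1l, the H3K79 methyltransferase, rose from 3.40, 3.97 and 4.73 to 12.7, 13.5 and 14.6 FPKM (log2 fold change 1.54, SE 0.11, limma adjusted p = 1.01e-04). The H3K4 methyltransferase Kmt2d rose from 4.44, 4.30 and 4.22 to 10.7, 11.4 and 11.3 FPKM (log2 fold change 1.19, SE 0.069, limma adjusted p = 5.05e-05), and its relatives Kmt2a, Kmt2b, Kmt2c and Kmt2e rose by 1.03, 0.92, 0.65 and 0.67. Dnmt1, the maintenance DNA methyltransferase, rose from 5.12, 4.18 and 5.55 to 7.45, 8.38 and 7.78 FPKM (limma adjusted p = 0.00362). Dot1l, Kmt2d and Dnmt1 averaged under 5 FPKM in HMD samples, so their rises also brought them into the set and its counts. Prmt1, the main arginine methyltransferase, fell from 16.5, 20.4 and 18.7 to 8.91, 9.31 and 7.41 FPKM (log2 fold change -1.03, SE 0.11, limma adjusted p = 4.26e-04), and the other fall was the demethylase Kdm4b (-0.28, not called with TPM).

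For histone acetylation, the mark that the study examined, 8 of 22 members rose, 1 fell and 13 were not called (median 0.19, 14 higher and 0 lower with TPM). The acetyltransferase Crebbp rose from 6.13, 5.90 and 5.44 to 8.79, 8.59 and 9.29 FPKM (log2 fold change 0.54, SE 0.075, limma adjusted p = 0.00124), and its paralogue Ep300 rose by 0.30. The corepressor Ncor1, a partner of Hdac3, rose from 21.3, 23.9 and 20.4 to 28.6, 29.8 and 29.9 FPKM (limma adjusted p = 0.00433). Hdac3 and Hdac6 rose by 0.23 and 0.41, while Hdac1 and Hdac2 were at -0.024 and 0.10 and not called. Kat2b fell (-0.31, not called with TPM). Many of these genes are long, and with the length trend removed the medians of both chromatin lists were 0.19 and 0.17.

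**Figure D4:**
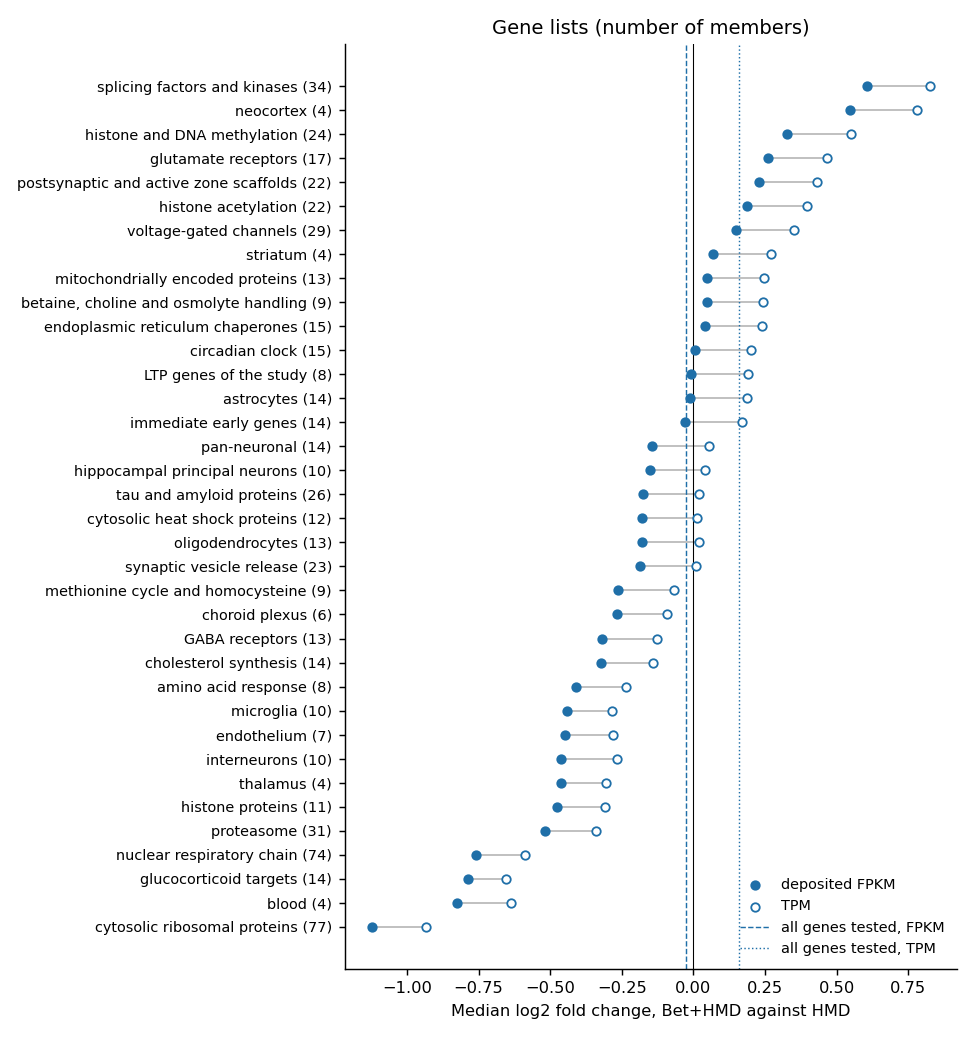
Median log2 fold change of each gene list with at least 4 members, from deposited FPKM (filled) and from TPM (open), with the number of members in brackets and dashed and dotted lines at the medians of all genes tested. Ribosomal proteins (-1.12) and splicing factors (0.61) are at the ends, and lists near the middle change sign between the scales.

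Of 17 glutamate receptor members 7 rose, 1 fell and 9 were not called (median 0.26, 11 higher and 0 lower with TPM). Gria2, the AMPA receptor subunit that limits calcium entry, rose from 40.5, 63.5 and 50.2 to 73.7, 74.7 and 81.0 FPKM (limma adjusted p = 0.0166). The kainate receptor subunits Grik3 and Grik2 rose by 0.59 and 0.55, and the metabotropic receptor Grm7 rose by 0.48. Gria1, the most abundant subunit, read 126, 145 and 133 FPKM in HMD and 128, 126 and 125 FPKM in Bet+HMD samples and was not called (limma adjusted p = 0.354). In a list of 8 genes of long-term potentiation, Gria3 alone was called, from 20.05, 27.6 and 24.2 to 29.6, 29.4 and 31.3 FPKM (limma adjusted p = 0.0499, just inside the threshold, and lost when any library but the second HMD sample was left out), and Grin2a, Grin2b, Ptk2b, Slc1a1, Slc24a2 and Src were between -0.18 and 0.32, with Grin2b called higher with TPM. That list is the study's own choice on mice of this diet and so is not independent evidence.

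GABA receptor members were lower where called, as 6 of 13 fell and none rose (median -0.32, 0.041 after quantile normalization, and 2 higher and 4 lower with TPM). Gabra5, an alpha subunit of extrasynaptic receptors in the hippocampus, fell from 71.1, 91.8 and 79.1 to 49.1, 45.9 and 45.4 FPKM (log2 fold change -0.77, SE 0.10, limma adjusted p = 9.65e-04). Gabra4 fell from 30.2, 32.5 and 26.9 to 19.9, 19.5 and 20.8 FPKM and Gabrg1 from 6.64, 5.86 and 6.76 to 4.13, 4.37 and 4.35 FPKM (limma adjusted p = 0.0019 and 0.00247). All Bet+HMD values of Gabrg1 were under 5 FPKM, so it came in through HMD. The metabotropic subunit Gabbr1 was the most abundant and read 87.7, 70.6 and 85.3 against 85.5, 85.6 and 87.5 FPKM without passing the test (adjusted p = 0.447), although it was called higher with TPM (log2 fold change 0.29, limma adjusted p = 0.0413) and after quantile normalization (limma adjusted p = 0.00428).

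Scaffolds of the postsynaptic density and active zone rose in 9 of 22 members and fell in 2 (median 0.23, 15 higher and 1 lower with TPM). Shank1 rose from 37.2, 36.7 and 44.9 to 72.5, 74.3 and 79.3 FPKM (log2 fold change 0.92, SE 0.094, limma adjusted p = 3.67e-04). Homer3 fell from 8.05, 9.90 and 7.54 to 4.64, 4.03 and 3.57 FPKM (log2 fold change -0.90, SE 0.12, limma adjusted p = 0.00105). All Bet+HMD values of Homer3 were under 5 FPKM, so it came in through HMD. Of 23 vesicle release members 3 were higher and 10 lower (median -0.19), near the 16.7% and 36.7% of all members (median -0.15). With TPM this order turned, to 5 higher and 3 lower with a median of 0.010. The priming factor Unc13a and the calcium sensor Syt7 rose to 28.4, 30.3 and 30.3 FPKM and to 61.9, 63.6 and 61.8 FPKM, from 17.9, 18.9 and 18.3 and from 44.3, 44.2 and 43.6 FPKM in HMD samples. Rab3a, a small GTPase of synaptic vesicles, fell from 206, 216 and 213 to 148, 145 and 127 FPKM (limma adjusted p = 0.00108). Snap25, the most abundant of the list, read 312, 360.2 and 284 and 290.4, 272 and 277 FPKM and was not called.

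Among voltage-gated channels 9 of 29 members rose and 5 fell, beside 16 higher and 2 lower with TPM. The rises were mainly pore subunits of calcium channels, 7 of the 9 named Cacna1, such as Cacna1a of P/Q-type channels from 11.2, 10.2 and 11.7 to 16.3, 17.8 and 17.5 FPKM and Cacna1d from 3.82, 4.09 and 2.77 to 6.75, 6.94 and 6.94 FPKM (limma adjusted p = 9.11e-04 and 0.0017). All HMD values of Cacna1d were under 5 FPKM, so its rise also brought it into the set. The pacemaker channel Hcn2 fell from 46.2, 42.4 and 54.4 to 27.6, 30.4 and 27.0 FPKM (limma adjusted p = 0.00137). With the length trend removed the median of the list went from 0.15 to 0.052.

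Defining genes of the hippocampus were present at high levels, with Camk2a, the kinase of excitatory neurons, at 507, 612 and 536 FPKM in HMD and 557, 574 and 569.9 FPKM in Bet+HMD samples (not called, adjusted p = 0.704). Of 10 markers of hippocampal principal neurons 3 fell and none rose (2 higher and 2 lower with TPM), with a median of -0.15 by FPKM and 0.041 by TPM. Spink8 and Fibcd1, both markers of CA1 neurons, fell from 16.3, 21.2 and 15.2 to 7.502, 7.99 and 5.81 FPKM and from 20.4, 25.1 and 26.8 to 13.0, 13.4 and 13.5 FPKM (limma adjusted p = 8.06e-04 and 8.93e-04). In Con samples Fibcd1 was higher than in both other groups, at 40.5, 33.5 and 31.4 FPKM. The vesicular glutamate transporter Slc17a7 fell from 207, 260.4 and 217 to 166, 174 and 168 FPKM, a call lost with TPM (adjusted p = 0.0978). Of 14 genes of all neurons 2 rose and 6 fell (3 higher and 4 lower with TPM), beside 16.7% and 36.7% of all members. Among those that fell were Stmn2, which binds tubulin in growing axons, from 67.7, 69.6 and 67.8 to 36.6, 36.0 and 36.2 FPKM (log2 fold change -0.90, SE 0.059, limma adjusted p = 7.69e-05), Syn2 (-0.63) and Nefl (-0.51).

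Markers of inhibitory interneurons were lower in 5 of 10 members, and none rose (median -0.46, and -0.27 with TPM, under which 4 were lower and 0 higher). Calb2, which encodes calretinin, fell from 33.8, 23.1 and 26.4 to 10.4, 9.37 and 8.80 FPKM (log2 fold change -1.44, SE 0.14, limma adjusted p = 2.93e-04). Slc32a1, the vesicular GABA transporter, fell from 21.8, 26.3 and 30.4 to 13.1, 12.1 and 12.9 FPKM (log2 fold change -0.97, SE 0.12, limma adjusted p = 7.10e-04), and Pvalb from 24.6, 19.6 and 22.01 to 11.4, 11.1 and 12.7 FPKM (log2 fold change -0.85, SE 0.10, limma adjusted p = 6.15e-04). The GABA-synthesising enzymes Gad1 and Gad2 fell by 0.44 and 0.51 on the log2 scale, the call of Gad1 being lost with TPM. Sst was spread in both groups, at 129.96, 117 and 193 and 127, 117 and 95.4 FPKM, and was not called.

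Glial lists held both directions. Of 14 astrocyte markers 3 rose and 2 fell (4 higher and 2 lower with TPM). Apoe, the lipid carrier, rose from 223, 197 and 298 to 409, 421 and 382 FPKM (limma adjusted p = 0.00472), though the Con samples, at 279, 199.8 and 654 FPKM, spanned nearly all of these values. Glul, the glutamine synthetase, rose from 393, 369.7 and 413 to 518, 511 and 491 FPKM, whereas the filament protein Gfap fell from 80.1, 84.3 and 79.7 to 52.5, 51.9 and 50.5 FPKM and the connexin Gja1 from 29.8, 26.9 and 25.7 to 19.8, 19.4 and 19.997 FPKM. Of 13 oligodendrocyte markers 6 fell (3 higher and 5 lower with TPM), among them the myelin proteins Mog (43.8, 36.1 and 37.9 to 22.3, 18.6 and 18.6 FPKM), Cldn11 (-0.69) and Cnp (-0.65), and Sox10 rose (0.37), while Mbp was at -0.033 and not called. The medians of the oligodendrocyte, astrocyte and pan-neuronal lists lay below 0 with FPKM and above 0 with TPM. Among 3 precursor genes Gpr17 rose (0.41), Pdgfra fell (-0.37, not called with TPM) and Bcas1 was not called (0.12).

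Microglia markers fell in 6 of 10 members, and none rose (median -0.44). Csf1r, the receptor that maintains microglia, fell from 19.2, 20.2 and 19.2 to 13.6, 13.0 and 13.7 FPKM (log2 fold change -0.51, SE 0.065, limma adjusted p = 8.52e-04), and the complement gene C1qb from 22.9, 27.7 and 27.3 to 17.4, 16.9 and 14.3 FPKM (limma adjusted p = 0.00255). With TPM 3 microglial members were lower and 1 higher. Endothelial markers fell in 5 of 7 members and none rose (1 higher and 3 lower with TPM), led by the glucose transporter Slc2a1, from 54.3, 49.3 and 48.4 to 27.1, 29.2 and 28.5 FPKM (log2 fold change -0.82, SE 0.073, limma adjusted p = 2.20e-04), followed by Ly6c1, Itm2a, Cldn5 and Bsg, the last pair not called with TPM. Of the 4 endothelial markers under 5 FPKM, Pecam1 overlapped between groups, while Cdh5 (2.59 to 3.29 in HMD and 3.999 to 4.69 FPKM in Bet+HMD samples), Tek (2.76 to 3.45 and 3.49 to 3.91 FPKM) and Kdr (1.78 to 1.99 and 2.23 to 2.63 FPKM) lay wholly higher in Bet+HMD samples. Of the globins, which mark red cells, Hba-a2 fell from 35.6, 24.7 and 27.4 to 1.29, 1.53 and 1.81 FPKM and Hbb-bs from 93.2, 73.4 and 94.4 to 56.9, 47.8 and 38.1 FPKM (limma adjusted p = 1.57e-05 and 0.0042). Hba-a1 and Hbb-bt, at -0.78 and -0.51, were not called, and the near-identical alpha globin copies may share reads.

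Markers of neighbouring tissue varied among the samples. Summed over the 9 thalamic markers in the table, of which 4 were members, FPKM ran from 42.7 to 117 in HMD samples, from 41.5 to 44.0 in Bet+HMD samples and from 31.4 to 36.0 in Con samples. Prkcd of the thalamus read 20.5, 7.02 and 11.1 FPKM in HMD and 5.53, 5.46 and 5.61 FPKM in Bet+HMD samples (log2 fold change -0.97, limma adjusted p = 0.0379, and 0.0687 with TPM), while Adarb1 was not called. Ttr, the carrier protein that marks choroid plexus, read 2518, 842 and 1896 FPKM in HMD and 1174, 1153 and 904 FPKM in Bet+HMD samples and, like the other 5 choroid members, was not called. Of 4 striatal members the peptide gene Penk alone was called (17.8, 11.7 and 19.2 to 9.48, 8.68 and 11.1 FPKM, lower, and not called with TPM), while the other 3 lay above 0, such as Pde10a and Ppp1r1b at 0.13 and 0.011 (1 higher and 0 lower with TPM). Of the 5 striatal markers under 5 FPKM, Rgs9 lay wholly higher in Bet+HMD samples (2.62 to 2.76 FPKM, beside 1.34 to 1.69 FPKM in HMD), Drd2 and Tac1 lay wholly lower, and the others overlapped. The neocortical transcription factors Tbr1 and Fezf2 rose (0.75 and 0.50) while Rprm, of deep cortical layers, fell (-0.80). With TPM 3 of the 4 neocortical members were higher and 1 lower. The part of neighbouring tissue in the results was not tested.

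Genes of the methionine cycle, the pathway that the diet loads, fell in 5 of 9 members and none rose (median -0.26, and -0.067 with TPM, under which 2 were higher and 3 lower). Ahcy, which hydrolyses the spent methyl donor to homocysteine, fell from 7.35, 9.38 and 7.43 to 4.58, 5.10 and 4.48 FPKM (log2 fold change -0.66, SE 0.11, limma adjusted p = 0.00235), and the Con samples read 6.76, 7.21 and 7.71 FPKM. As Ahcy averaged 4.72 FPKM in Bet+HMD samples, it came in through HMD. Mat2b, the regulatory subunit of the enzyme that makes S-adenosylmethionine, fell from 18.7, 22.2 and 23.4 to 13.7, 13.6 and 14.4 FPKM (log2 fold change -0.58, SE 0.093, limma adjusted p = 0.00219), while its catalytic subunit Mat2a, at 40.4, 42.6 and 34.8 and 40.6, 40.8 and 42.5 FPKM, was not called (higher with TPM, limma adjusted p = 0.0383). Mmadhc, which routes cobalamin to methionine synthase, fell from 17.2, 20.4 and 17.9 to 9.47, 9.72 and 6.99 FPKM (log2 fold change -1.01, SE 0.13, limma adjusted p = 8.47e-04). Ahcyl1 fell too (-0.26), though not with TPM (adjusted p = 0.421), and Amd1, of polyamine synthesis, fell by 0.29 on the log2 scale, a call lost with TPM. Cbs, the first enzyme of transsulfuration, read 8.73, 6.81 and 7.24 and 9.25, 9.40 and 9.04 FPKM and was not called (higher with TPM, limma adjusted p = 0.00844).

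The enzyme that uses betaine to remethylate homocysteine was nearly absent from the tissue, with Bhmt at 0 to 0.206 FPKM in HMD and 0.0200 to 0.0785 FPKM in Bet+HMD samples, far below the level required of a member. Methionine synthase Mtr (2.38 to 3.25 and 3.85 to 4.49 FPKM in HMD and Bet+HMD samples) also averaged below that level, with Bet+HMD values above all HMD values. Of the folate enzymes Mthfd1 alone was a member, and it was not called (6.92, 7.74 and 7.81 against 7.88, 6.85 and 7.84 FPKM). Among 9 members that handle betaine, choline and osmolytes 3 rose and 2 fell (5 higher and 1 lower with TPM). A further 10 genes of this list averaged under 5 FPKM. Of these Slc6a12 (0.321 to 0.509 FPKM in HMD and 0.685 to 0.924 FPKM in Bet+HMD samples), Dmgdh and Chkb lay wholly higher in Bet+HMD samples. Sardh and Akr1b3 lay wholly lower, and the others overlapped. Chka, the kinase that commits choline to phospholipid, rose from 4.23, 5.44 and 4.82 to 9.15, 9.23 and 9.39 FPKM (log2 fold change 0.82, SE 0.092, limma adjusted p = 5.02e-04). As Chka averaged 4.83 FPKM in HMD samples, its rise also brought it into the set. Slc6a6, the taurine transporter, rose from 15.7, 17.4 and 15.2 to 21.98, 20.9 and 22.6 FPKM (log2 fold change 0.42, SE 0.076, limma adjusted p = 0.00374), and the osmotic stress factor Nfat5 rose by 0.57. The choline transporter Slc44a1 fell from 21.4, 22.3 and 17.7 to 13.6, 14.4 and 13.7 FPKM (log2 fold change -0.52, SE 0.10, limma adjusted p = 0.00435) and Cept1 fell (-0.20, not called with TPM).

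Genes of the amino acid response, which cells raise when amino acids run short, fell in 5 of 8 members, and none rose (1 higher and 4 lower with TPM). Phgdh and Psat1, of serine synthesis, fell from 26.7, 23.9 and 26.7 to 15.4, 16.2 and 12.0 FPKM and from 36.1, 33.2 and 35.7 to 21.1, 20.8 and 19.5 FPKM (limma adjusted p = 0.00151 and 2.56e-04). Ddit4, an inhibitor of mTORC1 that glucocorticoids also induce, fell from 30.6, 28.0 and 32.2 to 14.96, 15.2 and 13.7 FPKM (log2 fold change -0.999, SE 0.080, limma adjusted p = 1.44e-04), and asparagine synthetase Asns fell by 0.45 on the log2 scale. Atf4, the transcription factor of this response, was at 0.059 and not called. Chaperones of the endoplasmic reticulum were mixed, with 3 of 15 higher and 4 lower (7 and 3 with TPM). Calr rose from 61.7, 57.9 and 65.1 to 97.4, 98.8 and 90.2 FPKM (log2 fold change 0.62, SE 0.075, limma adjusted p = 6.50e-04), while Herpud1 and Dnajb9 fell (-0.74 and -0.70). Of 12 cytosolic heat shock proteins 2 rose and 5 fell (3 higher and 2 lower with TPM), with Hspe1 at -1.01, Hspa8 at -0.42 and Dnajb5 at 0.80 all called, and Hsp90ab1 called lower with FPKM but not with TPM (-0.29, adjusted p = 0.318 with TPM).

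Genes known to be induced by glucocorticoids fell in 11 of 14 members, 5 of them at least 2-fold, and 1 rose (median -0.79). With TPM 11 were lower and 2 higher (median -0.66). This list was written after earlier results of these data were known. The falls include Arrdc2, Cdkn1a, Fkbp5, Mt2 and Pdk4, which averaged under 5 FPKM in Bet+HMD samples and so came in through HMD. Fkbp5, a chaperone that damps the glucocorticoid receptor, was at 11.6, 11.2 and 11.5 FPKM in HMD samples and at 4.55, 4.87 and 4.56 FPKM in Bet+HMD samples (log2 fold change -1.13, SE 0.068, limma adjusted p = 5.44e-05), and the Con samples read 6.98, 7.31 and 7.66 FPKM. All Con values of Fkbp5 lay between the other groups. Sgk1, a kinase that regulates ion transport, was at 53.9, 48.1 and 48.2 FPKM in HMD, at 26.2, 27.0 and 26.1 FPKM in Bet+HMD and at 25.7, 29.8 and 24.6 FPKM in Con samples (log2 fold change -0.90, SE 0.072, limma adjusted p = 1.46e-04), so that Bet+HMD and Con values overlapped. Nfkbia, the inhibitor of NF-kappaB, fell from 24.5, 19.5 and 23.9 to 9.26, 9.69 and 7.96 FPKM (log2 fold change -1.24, SE 0.11, limma adjusted p = 2.29e-04), below the Con samples at 14.8, 13.4 and 15.5 FPKM.

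The metallothioneins Mt1 and Mt2, which bind zinc and copper and respond to glucocorticoids and to metals, fell from 261, 239 and 228 to 128, 120.1 and 86.6 FPKM and from 13.8, 13.4 and 11.5 to 2.94, 2.79 and 1.17 FPKM (limma adjusted p = 9.27e-04 and 4.04e-04). Cdkn1a, the cell cycle inhibitor p21, fell from 11.2, 7.42 and 8.40 to 2.56, 2.96 and 2.65 FPKM (log2 fold change -1.41, SE 0.14, limma adjusted p = 3.18e-04). Tsc22d3, known as GILZ, fell by 0.82 on the log2 scale. Klf9 and Zbtb16, from the same list, were at -0.065 and 0.090 and did not pass the test, though Zbtb16 was called higher with TPM. Per1, which stands in both this list and the clock list, rose from 13.6, 12.4 and 14.9 to 18.6, 18.7 and 19.2 FPKM (log2 fold change 0.44, SE 0.081, limma adjusted p = 0.00395). In the same table no member passed an adjusted p under 0.05 between HMD and Con by limma, and 238 did so unadjusted, so the HMD levels set beside Con above are descriptions.

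**Figure D5:**
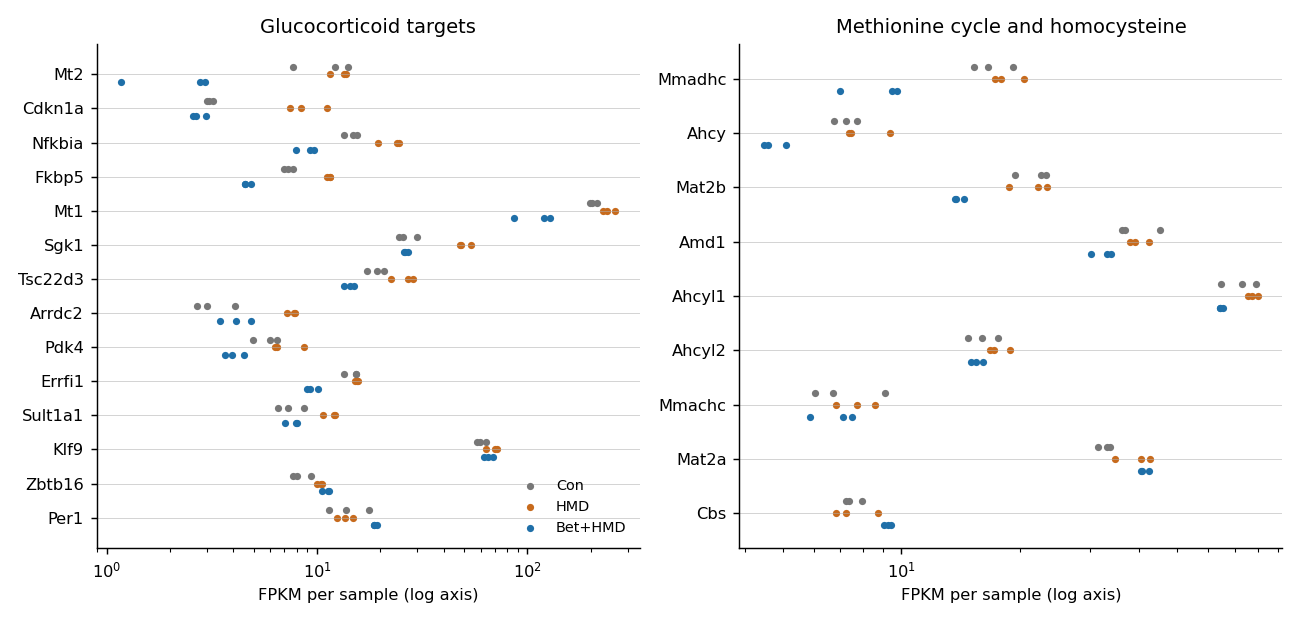
FPKM of each sample (log axis) for the 14 glucocorticoid target members and the 9 methionine cycle members, with 3 points per group for Con, HMD and Bet+HMD. HMD points are the highest of the 3 groups for Sgk1, Fkbp5, Cdkn1a and Nfkbia, while in the right panel Con points lie mostly with HMD points.

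Clock genes, which follow the time of day, rose in 5 of 15 members and fell in 1 (6 higher and 1 lower with TPM), and the hour of sampling is not given in the sources used here. Per3 rose from 3.44, 4.15 and 3.59 to 9.30, 9.62 and 9.73 FPKM (log2 fold change 1.16, SE 0.082, limma adjusted p = 9.54e-05) and Per2 from 5.12, 5.52 and 6.19 to 8.01, 8.80 and 8.46 FPKM (log2 fold change 0.51, SE 0.086, limma adjusted p = 0.00264), and Npas2 and Nr1d1 rose by 0.52 and 0.42. All HMD values of Per3 were under 5 FPKM, so its rise also brought it into the set. Cry1 fell (-0.56), and Dbp and Tef, output genes of the clock, were at -0.013 and -0.14 and not called. Of the immediate early genes, induced by neuronal activity, 3 of 14 rose and 1 fell. A further 5 genes of this list averaged under 5 FPKM. Of these Fos (5.36 to 6.13 FPKM in HMD and 4.23 to 4.37 FPKM in Bet+HMD samples) and Ier2 (4.12 to 5.99 and 2.42 to 3.19 FPKM) lay wholly lower in Bet+HMD samples. Npas4 (1.49 to 2.64 and 3.40 to 3.98 FPKM) lay wholly higher, and the others overlapped. Nr4a2 rose from 11.3, 11.8 and 13.3 to 19.9, 19.2 and 21.7 FPKM (log2 fold change 0.70, SE 0.086, limma adjusted p = 7.28e-04), and Nr4a1 rose by 0.63 and Fosl2 by 0.33. The phosphatase Dusp1, also a glucocorticoid-induced gene, fell from 10.3, 10.3 and 9.99 to 6.89, 7.63 and 5.94 FPKM (log2 fold change -0.52, SE 0.093, limma adjusted p = 0.00355), while Arc (0.29), Egr1 (0.28) and Egr3 (-0.056) were not called.

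Of 26 genes of tau and amyloid proteins and the enzymes that act on them, 2 rose and 10 fell (6 and 7 with TPM). Among all members 16.7% were higher and 36.7% lower. Aplp1, a relative of the amyloid precursor, fell from 330.4, 329 and 348 to 226, 220.5 and 201 FPKM (log2 fold change -0.64, SE 0.074, limma adjusted p = 5.75e-04), and App itself fell by 0.24 on the log2 scale, a call lost with TPM. Mapt, which encodes tau, and the beta-secretase Bace1 rose, by 0.36 and 0.36. Of the proteins of protein phosphatase 2A, the main tau phosphatase, the scaffold Ppp2r1a and the catalytic subunits Ppp2ca and Ppp2cb fell by 0.58, 0.59 and 0.48. Its methyltransferase Lcmt1, which draws on S-adenosylmethionine, fell from 16.8, 20.1 and 16.4 to 10.3, 10.6 and 9.88 FPKM (log2 fold change -0.74, SE 0.091, limma adjusted p = 7.39e-04). Cdk5r1, the activator of the tau kinase Cdk5, fell from 75.1, 84.5 and 72.1 to 42.4, 47.8 and 46.6 FPKM (log2 fold change -0.75, SE 0.086, limma adjusted p = 5.67e-04).

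Cholesterol synthesis genes fell in 9 of 14 members and rose in 2 (2 higher and 5 lower with TPM). Insig1 and Fdft1 fell from 23.8, 22.4 and 19.6 to 14.1, 13.8 and 14.0 FPKM and from 18.3, 19.3 and 18.4 to 13.4, 11.7 and 10.8 FPKM (limma adjusted p = 0.00119 and 0.00149). Hmgcs1, the most abundant of the list, rose from 47.3, 50.6 and 41.2 to 56.9, 55.8 and 55.2 FPKM (log2 fold change 0.27, SE 0.087, limma adjusted p = 0.0361). The Y-linked members Ddx3y and Eif2s3y moved apart, with Ddx3y at 17.8, 21.2 and 18.1 FPKM in HMD and 13.8, 12.7 and 13.6 FPKM in Bet+HMD samples and Eif2s3y rising from 6.72, 7.20 and 6.36 to 16.2, 17.2 and 17.5 FPKM (limma adjusted p = 0.00376 and 5.94e-05).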

How the data were processed

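Total RNA of mouse hippocampus was sequenced in 3 Con, 3 HMD and 3 Bet+HMD samples, grouped by their titles. Per the submitters' processing notes, reads were aligned with HISAT2 2.1.0 to mm10 and counted per gene with featureCounts 1.5.0-p3. The study's methods name both tools in other versions and no genome build, and which versions made the table is not settled here. The authors deposited FPKM values, with gene length, position and biotype beside them (length in bases, another unit, used as deposited). No source used here says whether strand was used in counting, which leaves overlapping genes uncertain. The later of the 2 deposited tables was used, because it holds all 9 samples. The columns taken as Con were matched by elimination. Whole reads could be recovered from 100% of the values (tolerance 0.01), with 16031464 to 18291952 reads per library, and 3 reads were at most 1.87e-05% of a library, which covers counting error only.

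The methods of the study use a count-based tool. Since the deposited FPKM values are not counts, limma 3.58.1 (R 4.3.3), with moderated variances and an intensity trend, was fitted to log2(FPKM + 1) of the 6 HMD and Bet+HMD samples for the 13672 genes of any biotype with a mean FPKM of at least 1. The p-values are two-sided, with Benjamini-Hochberg adjustment across these genes. Calls needed an adjusted p under 0.05, and where stated also a difference of 1 or more on the log2 scale. The log2(FPKM + 1) scale understates changes of low genes. SE is limma's, and means, where given, are over 3 samples. HMD against Con was fitted in the same way. TPM, quantile normalization, median centring and removal of a trend on gene length were the other scalings, and further alternatives were another pseudocount (0.1), other filters, voom on the recovered reads, a replicate block and leaving out each sample. The script was tested on simulated data. Sequences are RefSeq's, and intron-retaining transcripts are those of GENCODE M21, which held 7191 of the 7194 members.

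Genes were named by rule: the 12 largest rises and 12 largest falls past both thresholds, not overlapping between groups and of the same sign under 5 scalings, the 5 smallest p-values, the 5 highest levels, and in each of 39 gene lists the most abundant member with up to 3 called members of smallest p. Other list members were named after their values were seen, and some genes that the rule names are not reported here. The members and lists were chosen with earlier results of these data known.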

Additional observations from a re-analysis of the deposited data

How the results depend on the processing

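The results rest on 3 samples per group, and the handling of the Bet+HMD libraries cannot be told apart from betaine. Depth limits few members, as the median member had 820.5 recovered reads in its lowest HMD or Bet+HMD library and 31 of 7194 had under 50. Some of the largest changes are among these. mt-Atp8, Gm11808, Muc3a, Hba-a2, Gm9493 and Gm2000 had 5, 18, 20, 15, 13 and 18 reads in their lowest library, so their fold changes are imprecise. Of the 128 named genes called, 107 were called in the same direction under every alternative and 124 kept their sign under every alternative. Many of these genes were chosen for a stable sign or a small p, so their counts do not describe the members at large. Among all members, 1071 of the 1202 called higher and 1264 of the 2642 called lower kept the call under all 5 scalings. With TPM 2003 members were higher and 1465 lower, 322 of them higher past the 2-fold line. Removing the length trend left 117 lower past that line. With a 1.5-fold line in place of the 2-fold line, 1496 members passed, 485 higher and 1011 lower. Leaving out 1 sample gave 2803 to 4085 called members, 884 to 1319 higher and 1919 to 2766 lower, and past the 2-fold line 388 to 449, 164 to 193 higher and 212 to 278 lower. The replicate numbers did not pair the samples (correlations of deviations 0.017, -0.10 and -0.15, and 1 of 6 samples correlated best with its own number). With the replicate block 1003 members were higher and 2189 lower. Calls of Ahcyl1, Bsg, Fezf2, Gria3, Hmgcs1, Hsp90ab1, Nr4a1, Penk, Prkcd, Rprm, mt-Cytb and mt-Nd6 were lost when some single sample was left out, with adjusted p up to 0.14.

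Log2 fold changes of the opposite sign to the reported one (the cause was not tested) were with TPM mt-Nd1 0.095, Adarb1 0.018, Snap25 0.019, Gria1 0.11, Egr3 0.14, Cox8a 0.050 and Tef 0.061, after quantile normalization mt-Nd1 0.099, mt-Nd2 0.037, Slc17a7 0.010, Ttr 0.035, Snap25 0.18, Sst 0.032, Ahcyl1 0.12, Hsp90ab1 0.098, Gria1 0.30, Egr3 0.18, Cox8a 0.23 and Tef 0.17, and after removal of the length trend mt-Cytb 0.11, mt-Nd1 0.34, mt-Nd2 0.15, Camk2a -0.0048, Sst 0.16, Egr3 0.0031 and Cox8a 0.40. Leaving out 1 sample gave Camk2a -0.016 to 0.12, Adarb1 -0.31 to 0.026, Bcas1 -0.062 to 0.26, Mthfd1 -0.045 to 0.063, Gabbr1 -0.0046 to 0.15, Egr3 -0.26 to 0.060 and Cox8a -0.27 to 0.044. Of the 39 list medians 16 changed sign under some alternative.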
